A study of Rattus norvegicus with 8 samples.

Results

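The phagocyte NADPH oxidase is described here through 6 of its subunit and partner genes, Cybb, Cyba, Cybc1, Ncf1, Ncf4 and Rac2, in whole blood of hypertensive rats. The 6 genes were taken by name from the 17446 genes of the count table, and all 6 were found. Whole-blood RNA of male, wild type Wistar rats aged 12 to 14 weeks was sequenced in 8 libraries, with 2 libraries in each of 4 groups. Angiotensin II (AngII, 0.4 mg/kg/day) was infused from a subcutaneous osmotic minipump rated for 4 weeks, and the AngII libraries were of blood drawn in week 1 (before) and in week 5 (after). In the DOCA-HS model, deoxycorticosterone acetate (DOCA, 100 mg/kg) was injected weekly and the drinking water held 0.9% NaCl and 1% KCl, with blood drawn in week 3 (before) and in week 7 (after). Chios mastic gum (CMG), the resin of the mastic tree, was given daily at 220 mg/kg in both models. It was given for the 4 weeks that separate before from after. The AngII blood after CMG was drawn in week 5, past the 4 weeks for which the pump was rated. Whether AngII was still infused at that draw is not given. Libraries of rats kept in the model without CMG were not analysed here, so CMG and 4 further weeks of the model cannot be told apart. In the AngII model a possible end of the infusion cannot be told apart from them either. By the study's methods the rats of a model were bled at both time points, but the labels do not tie a replicate number to a rat. Whether same-numbered libraries before and after share a rat, or replicates 1 and 2 are separate animals, is thus not given, and the p-values measure only the spread between these libraries.

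The phagocyte oxidase is the enzyme with which neutrophils, monocytes and macrophages make superoxide in the respiratory burst. Cybb encodes its catalytic, electron-carrying chain and Cyba the smaller membrane partner, which together form a flavocytochrome, and Cybc1 encodes an endoplasmic reticulum chaperone needed for that pair to reach the membrane. On activation the cytosolic proteins encoded by Ncf1 (the organizer, phosphorylated on stimulation) and Ncf4 (which binds a phosphoinositide of the phagosome) move to the membrane and join a Rac GTPase, of which Rac2 is the form of blood cells. In hypertension research the enzyme is known as a source of reactive oxygen species downstream of AngII.

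Depth limited these values unevenly. Total counts ranged from 6804001 to 13205565 in the AngII libraries and from 4149104 to 9631446 in the DOCA-HS libraries, and 61.9% to 84.3% of them fell on 2 hemoglobin genes. DOCA-HS after CMG replicate 2 stood apart, with 651764 counts outside hemoglobin against 2195735 to 4490083 in the other 7 libraries and 2686 genes at 10 counts or more against 6097 to 8280. The 6 oxidase genes together had 300 counts in that library and 871 to 2945 in the others. Levels are given as normalized CPM (the count of a gene relative to the scaled library total), scaled with the trimmed mean of M-values over the 8 libraries, and a gene is compared with itself across libraries because the counts were not divided by gene length. On that scale 3 counts corresponded to 2.11 CPM in DOCA-HS after CMG replicate 2, and to less in every other library, down to 0.166 CPM. In whole blood, fewer phagocytes and less RNA per phagocyte cannot be told apart.

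Promoter sequence was at hand for 4 of the 6 genes, in RefSeq's build GRCr8. The last 150 bases before the annotated start are shown for the flavocytochrome pair and its chaperone, since the AngII comparison below turns on how these genes moved. All 3 genes lie on the minus strand, and the sequences read 5′ to 3′ along the gene, from chrX:16065066-16065215 for Cybb, chr19:67404215-67404364 for Cyba and chr10:107003842-107003991 for Cybc1. Capitals mark the matches to 2 motifs searched on both strands, the core GAGGAA of PU.1 (the myeloid factor encoded by Spi1) and the interferon-stimulated response element, spelled as GAAA, any 2 bases and GAAA again.
Cybb: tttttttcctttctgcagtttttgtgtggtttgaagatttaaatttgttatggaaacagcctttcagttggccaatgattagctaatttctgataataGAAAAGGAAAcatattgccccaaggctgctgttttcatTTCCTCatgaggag
Cyba: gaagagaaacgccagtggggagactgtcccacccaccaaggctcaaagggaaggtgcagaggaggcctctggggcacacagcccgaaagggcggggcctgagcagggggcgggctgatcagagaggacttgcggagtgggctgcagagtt
Cybc1: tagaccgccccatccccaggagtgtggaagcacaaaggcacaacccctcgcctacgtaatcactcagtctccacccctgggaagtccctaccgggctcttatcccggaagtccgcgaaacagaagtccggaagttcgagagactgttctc
The Cybb stretch held both motifs, GAGGAA on the opposite strand (written TTCCTC along the gene) 14 to 9 bases before the start and the response element 52 to 43 bases before it. Cyba and Cybc1 held neither motif within 250 bases. Ncf1 held the response element on its own strand, 135 to 126 bases before the start. Of 33469 promoters of 250 bases in the same table, 23.3% held GAGGAA and 3.41% held the response element on either strand.

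The first question was whether the oxidase genes of the AngII model differed between after and before CMG. Cybc1 and Cybb rose, Ncf4 was higher in both libraries after CMG than in both before without passing the test, and Ncf1, Cyba and Rac2 overlapped. The word rose, or fell, is used here for an unadjusted p of at most 0.05 in edgeR's quasi-likelihood test on the 4 libraries of a model. After Benjamini-Hochberg adjustment over the 7201 genes tested in the AngII model, 0 genes passed 0.05 (lowest adjusted p = 0.474), with 479 genes at an unadjusted p of at most 0.05, so each call below is a call of that weaker kind. By this rule 2 of the 6 oxidase genes rose and none fell, while 5.04% of all genes tested rose.

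Cybc1, the chaperone of the flavocytochrome, showed the clearest separation. Its level was 5.18 and 6.58 CPM before CMG and 14.7 and 16.7 CPM after it, from 66, 39, 92 and 226 counts. Both libraries after CMG thus lay above both libraries before CMG, with a gap wider than the distance within either group. The group means were 5.88 ± 0.989 and 15.7 ± 1.41 CPM (SD, n = 2 each). The fitted difference was 2.73-fold, a log2 fold change of 1.45 (SE 0.30, unadjusted p = 0.0013, adjusted p = 0.628 by edgeR's quasi-likelihood test). The unadjusted p stayed at most 0.05 in every alternative run, with log2 fold changes from 1.27 to 1.86. The adjusted p ranged over those alternatives from 0.000321, with the replicate number as a block, to 0.999, without replicate 2 before CMG.

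Cybb, the catalytic chain, stood at 8.09 and 4.56 CPM before CMG and at 12.9 and 11.1 CPM after it. These levels came from 103, 27, 81 and 150 counts, and both libraries after CMG were above both before. The means were 6.32 ± 2.50 and 12.02 ± 1.32 CPM (SD, n = 2 each). The fitted difference was 1.87-fold, a log2 fold change of 0.91 (SE 0.36, unadjusted p = 0.0352, adjusted p = 0.713 by edgeR's quasi-likelihood test). Replicate 2 before CMG, with 27 counts, held the lowest AngII level, and without it the log2 fold change was 0.54 (unadjusted p = 0.264). Without replicate 1 after CMG the log2 fold change was 0.73 (unadjusted p = 0.0879), and with DESeq2 it was 0.89 (unadjusted p = 0.0864). The adjusted p of Cybb ranged over the alternatives from 0.0474, with the replicate number as a block, to 0.9996, with DESeq2.

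Cyba, the membrane partner of Cybb, had 10.99 and 16.0 CPM before CMG and 14.1 and 12.9 CPM after it. The libraries after CMG lay between the 2 before it, and the log2 fold change was 0.03 (SE 0.31, unadjusted p = 0.923), with a small negative value, -0.0044, by DESeq2. Of the cytosolic subunits, Ncf4 had 9.74 and 10.3 CPM before CMG and 12.1 and 13.2 CPM after it (log2 fold change 0.36, SE 0.28, unadjusted p = 0.238). The 2 groups of Ncf4 did not overlap, but the difference did not pass the test. Ncf1 had 10.4 and 15.4 CPM before CMG and 12.5 and 18.9 CPM after it (log2 fold change 0.33, SE 0.34, unadjusted p = 0.365), with overlapping groups. Rac2, the GTPase, had 84.1 and 94.2 CPM before CMG and 83.0 and 93.9 CPM after it (log2 fold change 0.01, SE 0.32, unadjusted p = 0.973). Its 2 groups covered nearly the same range.

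In all, 3 of the 6 genes (Cybb, Cybc1 and Ncf4) were higher in both AngII libraries after CMG than in both before, against 21.3% of all genes tested. The study's methods used DESeq2 and called a gene at a log2 change beyond 1.5 either way and an unadjusted p of at most 0.05. With this criterion applied to the edgeR fits here, 0 of 6 passed, against 1.24% of all genes, and Cybc1 at 1.45 was the nearest. Scaling to total counts took Cybc1 past that limit, to 1.84, and moved the median of all genes by 0.38 in the same direction. The median log2 fold change of the 6 genes was 0.34, beside -0.01 over all genes tested.

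**Figure D1:**
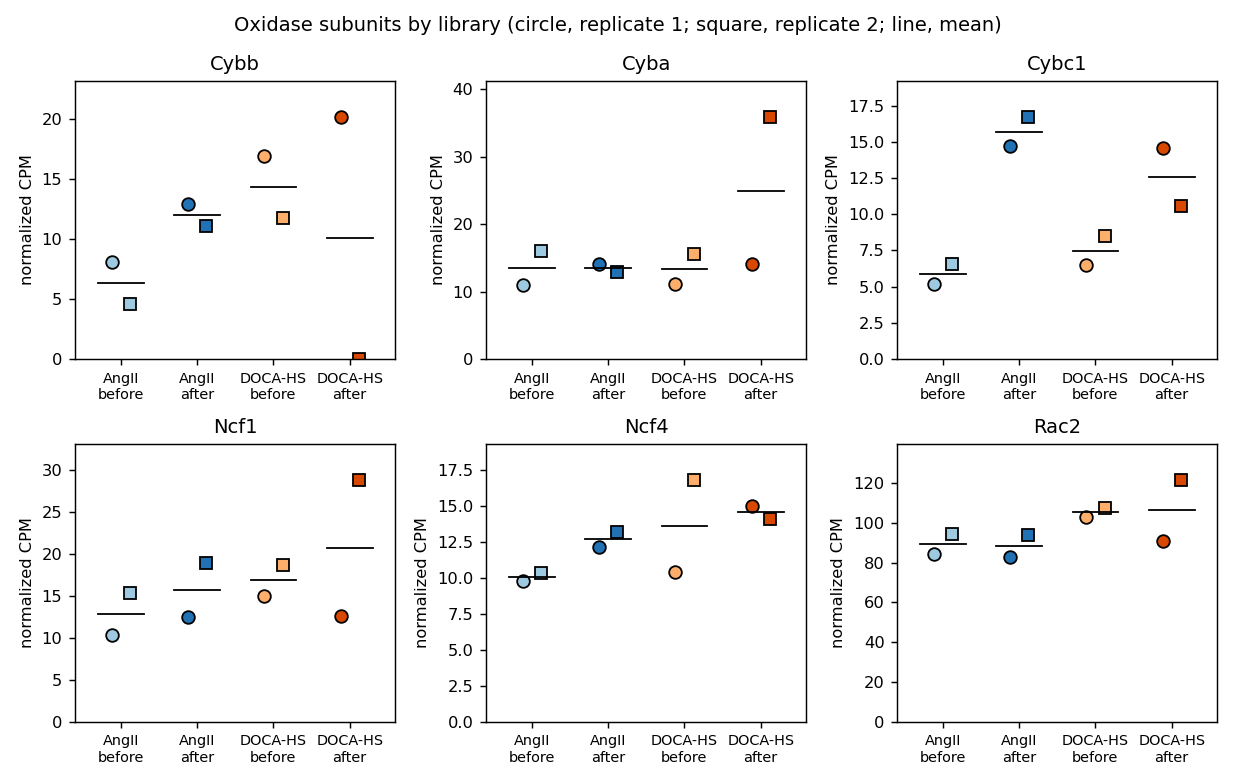
Normalized CPM (vertical axis, from 0, a separate scale for each gene) of the 6 oxidase genes in each of the 8 libraries, with circles for replicate 1, squares for replicate 2 and a line at the mean of each group. Cybc1 lies at 5.18 to 8.49 CPM in the 4 libraries before CMG and at 10.5 to 16.7 CPM in the 4 after it, and Cybb is at 0 in DOCA-HS after CMG replicate 2.

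Ratios between genes of the same library do not depend on how libraries are scaled. Among the counts of Cybc1 and Cyba together, Cybc1 made up 32.0% (95% Wilson interval 26.0% to 38.7%) and 29.1% (22.1% to 37.3%) in the AngII libraries before CMG. After CMG it made up 51.1% (43.9% to 58.3%) and 56.4% (51.5% to 61.1%), so no interval before CMG reached one after it. These intervals cover counting error only, since the reads carry no molecular identifiers. Cybb made up 42.4% and 22.1% of the counts of Cybb and Cyba before CMG and 47.9% and 46.2% after it, and the interval of replicate 1 before CMG (36.3% to 48.7%) held the values of both libraries after CMG. The pairs with Cyba and the shares that follow were chosen after the values were seen.

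As a share of the counts of all 6 genes, Cybc1 went from 4.03% to 4.48% in the AngII libraries before CMG to 9.85% to 10.02% after it. Rac2 made up 64.1% to 65.5% before and 55.6% to 56.3% after CMG. The shares of a library add up to a fixed whole, so larger shares of some genes must lower those of the rest. The smaller Rac2 share is thus not read as a fall of Rac2, whose normalized level had a log2 fold change of 0.01 (SE 0.32). With 2 libraries against 2, an exact two-sided permutation test cannot give a p below 0.333, and these shares are given as values. For the DOCA-HS model, Cybc1 made up 3.97% to 4.75% before and 5% to 8.73% after CMG, and Rac2 60.1% to 63.2% before and 54.3% to 57.7% after. The same limit holds for this Rac2 share, since the log2 fold change of its normalized level was 0.02 (SE 0.51). In DOCA-HS after CMG replicate 2, with 300 counts over the 6 genes, the Wilson interval of the Cybc1 share (3.05% to 8.08%) held both values before CMG, and that of Rac2 (52.0% to 63.1%) held the lower of them, so that library was not separated from those before CMG beyond counting error.

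**Figure D2:**
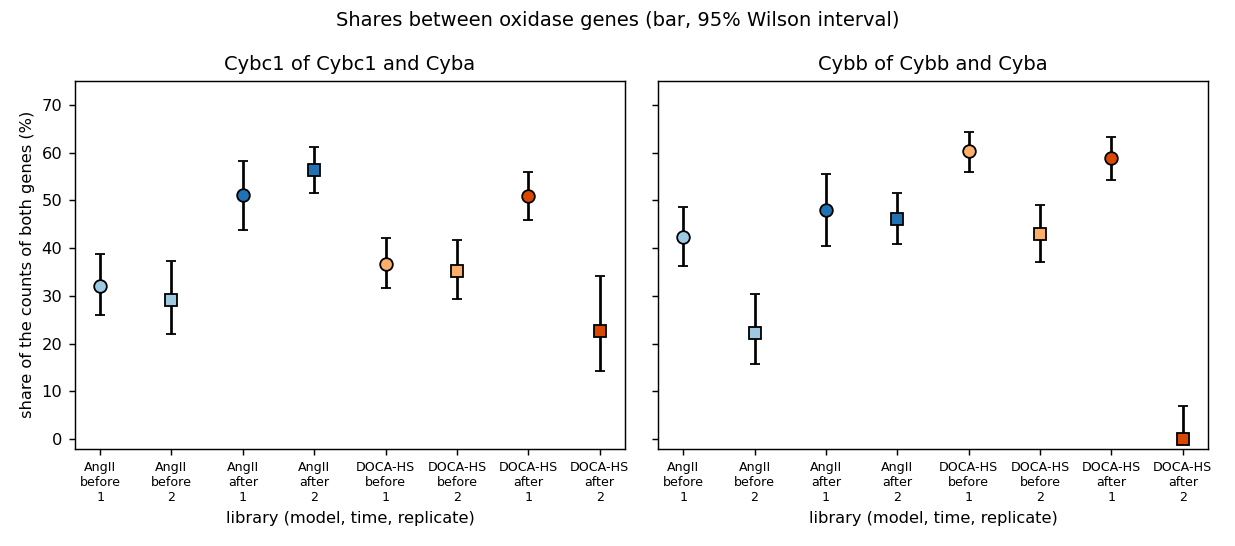
Share (%, vertical axis) of Cybc1 among the counts of Cybc1 and Cyba (left) and of Cybb among those of Cybb and Cyba (right) in each library, with bars for the 95% Wilson interval. The Cybc1 share is 29.1% to 32.0% before and 51.1% to 56.4% after CMG in the AngII model, and 22.7% in DOCA-HS after CMG replicate 2.

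The same question in the DOCA-HS model gave 0 of 6 oxidase genes at an unadjusted p of at most 0.05 by edgeR's quasi-likelihood test, and 0 by DESeq2. Of the 7720 genes tested there, 2.73% rose, 2.05% passed the criterion of the study's methods in either direction (0 of the 6 oxidase genes) and the lowest adjusted p was 0.997. The median log2 fold change of the 6 genes was 0.18, beside -0.04 over all genes tested. The SE of the 6 genes ranged from 0.45 to 0.94, above the 0.28 to 0.36 of the AngII model.

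Cybc1 again separated on the normalized scale, with 6.48 and 8.49 CPM before and 14.6 and 10.5 CPM after CMG, from 117, 80, 190 and 15 counts. Both libraries after CMG lay above both before (1 of the 6 genes, against 14.7% of all genes tested), but only under this scaling. Scaled to total counts, or to the counts outside hemoglobin, the Cybc1 groups overlapped. Its log2 fold change was 0.79 (SE 0.45, unadjusted p = 0.114, adjusted p = 0.997 by edgeR's quasi-likelihood test). In DOCA-HS after CMG replicate 2 the Cybc1 share of Cybc1 and Cyba was 22.7% (14.3% to 34.2%), while replicate 1 had 50.9% and the libraries before CMG 36.7% and 35.2%. Without that shallow library the Cybc1 log2 fold change was 0.99 (unadjusted p = 0.00212, adjusted p = 0.100 by edgeR's quasi-likelihood test). Cybc1 was then 1 of 6 oxidase genes that rose, against 6.48% of the 8366 genes tested in that fit, in which the single library after CMG is taken to vary like those before.

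Cybb had 16.9 and 11.8 CPM before CMG, 20.1 CPM in replicate 1 after CMG and no count at all in replicate 2. The fitted log2 fold change was -0.30 (SE 0.94, unadjusted p = 0.761), an average over 1 library above both before CMG and 1 at 0. A count of 0 allows up to 3 counts, which is 2.11 CPM in that library, so the level there was below the 11.8 to 20.1 CPM of the other 3. At their mean of 16.3 CPM, 23.2 counts of Cybb would have been counted. Of 576 other genes within 1.25-fold of Cybb in those 3 libraries, the median count in replicate 2 was 21, 23 had 3 counts or fewer and 2 (Dhx9 and Rasgrp1) had 0. More widely, 45 of the 3513 genes with at least 25 counts in each of the other 7 libraries (1.28%) had 0 counts there. Cyba had 51 counts in the same library, so that Cybb made up 0 of 51 counts of the pair, which allows a share of up to 5.88% by the limit of 3 counts and 7.005% by the Wilson interval, against 43.0% to 60.2% in the other 3. These comparisons and the window of 1.25-fold were chosen after the 0 was seen, and what part the depth or makeup of that library has in it was not tested.

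Without that library the log2 fold change of Cybb was 0.49 (unadjusted p = 0.121). With it in place of replicate 1 as the single library after CMG, the fit set Cybb against 0 counts, which gives no usable fold. The direction of Cybb in the DOCA-HS model thus turned on which library stood for the group after CMG.

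Of the remaining genes, Cyba, Ncf1 and Rac2 had their highest normalized level of the model in the same library. Scaled to total counts, each of them was instead lowest of the model there. Cyba had 11.2 and 15.6 CPM before CMG and 14.1 and 35.8 CPM after it (log2 fold change 0.85, SE 0.56, unadjusted p = 0.162). Ncf1 had 15.0 and 18.7 CPM before and 12.6 and 28.8 CPM after CMG (0.25, SE 0.52, unadjusted p = 0.649), with replicate 1 below and replicate 2 above both libraries before CMG. Under both scalings by totals the Ncf1 groups did not overlap and were lower after CMG, with log2 fold changes of -0.82 (total counts) and -0.33 (counts outside hemoglobin). Rac2 had 103 and 107 CPM before and 90.9 and 122 CPM after CMG (0.02, SE 0.51, unadjusted p = 0.976), and Ncf4 had 10.4 and 16.8 CPM before and 15.0 and 14.1 CPM after it (0.11, SE 0.46, unadjusted p = 0.815). Scaling to total counts moved the median of all genes in the DOCA-HS model by -0.72, so directions of single genes at this size are relative to the scaling.

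**Figure D3:**
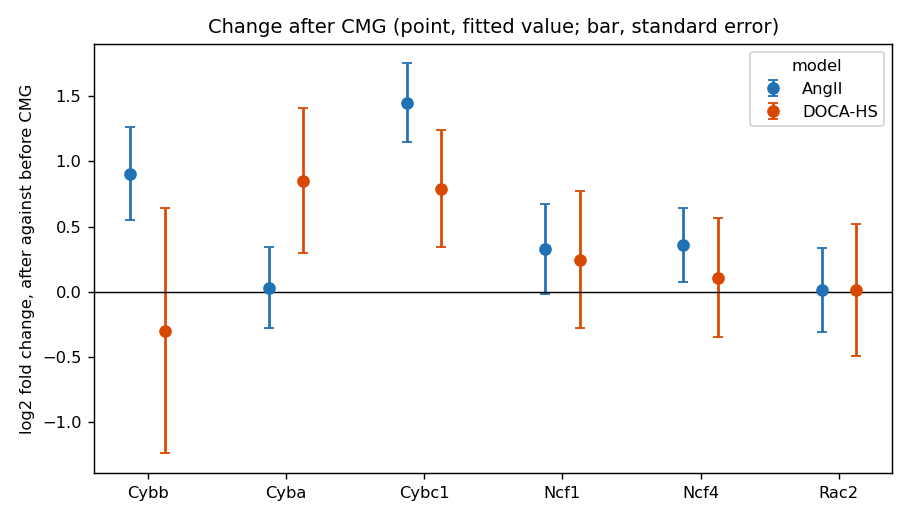
Log2 fold change after against before CMG (vertical axis) of the 6 oxidase genes, with points for the fitted value and bars for its SE, in blue for the AngII and in orange for the DOCA-HS model. Cybc1 has 1.45 (AngII) and 0.79 (DOCA-HS), and the widest bar (SE 0.94) is that of Cybb in the DOCA-HS model.

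Whether the change after CMG differed between the models was tested as an interaction over the 8 libraries. It gave 0 of 6 oxidase genes at an unadjusted p of at most 0.05 by edgeR's quasi-likelihood test and 0 by DESeq2, against 3.74% of the 7994 genes tested. The difference (DOCA-HS minus AngII) in log2 fold change was -0.63 for Cybc1 (SE 0.52, unadjusted p = 0.251), -1.16 for Cybb (SE 1.15, unadjusted p = 0.335) and 0.83 for Cyba (SE 0.67, unadjusted p = 0.241). A rise of Cybc1 and Cybb called in the AngII model and not in the DOCA-HS model is therefore not shown to differ between them. For Ncf1, Ncf4 and Rac2 the differences were -0.07, -0.23 and 0.02.

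The levels of the models were also set side by side, where model, week and agent cannot be told apart. Before CMG, Cybb had 16.9 and 11.8 CPM in DOCA-HS rats and 8.09 and 4.56 CPM in AngII rats, with no overlap (log2 difference 1.16, SE 0.82, unadjusted p = 0.184). Rac2 and Ncf4 were also higher in both DOCA-HS libraries than in both AngII libraries before CMG, with log2 differences of 0.24 and 0.44. That made 3 of the 6 genes higher without overlap and 0 lower, against 24.3% and 21.1% of all genes tested. None of the 6 genes passed an unadjusted p of 0.05 before CMG by edgeR's quasi-likelihood test or by DESeq2, where 3.38% of all genes tested did in either direction. After CMG again 0 of 6 passed by either tool, against 2.79% of all genes, and the largest difference was in Cyba (0.82, SE 0.48, unadjusted p = 0.116). There Ncf4 was higher (0.20) and Cybc1 lower (-0.28) in both DOCA-HS libraries than in both AngII libraries, against 10.8% and 15.9% of all genes tested, and both overlapped when scaled to total counts or to counts outside hemoglobin. In order of the group means, Cybc1 ran from AngII before (5.88 CPM) and DOCA-HS before (7.48 CPM) to DOCA-HS after (12.6 CPM) and AngII after (15.7 CPM), and neither DOCA-HS before against AngII before nor DOCA-HS after against AngII after passed the test (log2 differences 0.35 and -0.28).

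The other genes of the enzyme and its family were looked up in a list of 14, of which 13 were in the count table and 4 had enough counts to test. Rac1, the Rac GTPase of most tissues, ranged from 18.5 to 66.3 CPM over the 8 libraries with no separation by CMG in either model. Rap1a and Rap1b, the small GTPases found with the flavocytochrome, did not pass in either model, and Rap1b had 5 counts (3.51 CPM) in DOCA-HS after CMG replicate 2 against 17.4 to 44.9 CPM elsewhere. The oxidases of other tissues had few or no counts at this depth, with no count of Nox3, Nox4, Noxa1, Noxo1 or Duox2 in any library, 0 to 7 counts of Nox1 and at most 2 of Duox1, Duoxa1 and Duoxa2.

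Genes listed as receptors upstream of the oxidase numbered 17, of which 13 were tested. In the AngII model 6 of the 13 rose, against 5.04% of all genes tested, and none fell. All 13 fold changes were above 0, against 49.0% of all genes tested. Their median log2 fold change was 0.66 beside -0.01 over all genes. Those that rose were Ptafr (the receptor of platelet-activating factor, 1.16, unadjusted p = 0.00371), Itgam (the complement receptor integrin chain, 1.19, unadjusted p = 0.00693), Csf2ra (the granulocyte-macrophage colony-stimulating factor receptor, 0.97, unadjusted p = 0.0139), the Fc receptors Fcgr1a (0.92, unadjusted p = 0.0167) and Fcgr3a (1.29, unadjusted p = 0.0170) and C5ar1 (the complement C5a receptor, 0.84, unadjusted p = 0.0254). Of the same 13, 0 passed in the DOCA-HS model, where 2.73% of all genes tested rose. Their median there was 0.21, and Fcgr3a was nearest at 1.27 (unadjusted p = 0.0502). Among 21 tested genes of oxidase activation and signalling, Vav3 (an exchange factor for Rac, 0.86, unadjusted p = 0.0243) and Irak4 (a Toll-like receptor kinase, 0.92, unadjusted p = 0.0424) rose and Prkca (a protein kinase C, -0.93, unadjusted p = 0.0448) fell in the AngII model. The median of those 21 was 0.12 there and -0.31 in the DOCA-HS model, where none passed. Of 8 myeloid transcription factors, Cebpd (1.44, unadjusted p = 0.00396) and Spi1 (0.85, unadjusted p = 0.0228) rose in the AngII model and none passed in the DOCA-HS model, with medians of 0.15 and 0.26. These 2 of 8 also stand against 5.04% of all genes tested that rose in the AngII model, where 479 of 7201 passed in either direction.

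Markers of the blood cell types moved beside these genes. The blood held its defining cells, with erythroid markers summing to 10674 to 36424 CPM, and Myh6, Actc1 and Nppa of the heart had no count. The 6 eosinophil markers summed to 1590 to 7248 CPM, nearly all of it Alox15, with Epx and Prg2 near 0. That sum is thus the level of 1 gene and is not read here as a level of eosinophils. Of 11 monocyte markers 8 were tested, and in the AngII model Csf1r (the receptor of macrophage colony-stimulating factor, 1.20, unadjusted p = 0.0322) and Cd68 (0.72, unadjusted p = 0.0384) rose. In that model 5.04% of all 7201 genes tested rose, and 479 passed in either direction. Lyz2 (0.23, unadjusted p = 0.562) and Cd14 (-0.89, unadjusted p = 0.173) did not pass. The 10 of these markers in the count table summed to 430 and 419 CPM before and 532 and 525 CPM after CMG, above in both libraries, with 1 or 2 of the list at 0. Most of these sums was Lyz2, with means of 363 CPM before and 419 CPM after CMG. Neutrophil markers summed to 291 and 285 CPM before and 272 and 246 CPM after CMG in the AngII model, where 1 of the 11 tested rose (Cxcr2, 0.76, unadjusted p = 0.0283) and 1 fell (Il1r2), and S100a8 (-0.37), S100a9 (-0.26) and Csf3r (0.57) did not pass. For DOCA-HS rats the neutrophil sum was 156 and 478 CPM before and 214 and 597 CPM after CMG, and the monocyte sum 472 and 696 before and 658 and 417 after. There 2 of the 11 tested neutrophil markers fell, the granule genes Ngp (-3.27, unadjusted p = 0.0137) and Lcn2 (-4.02, unadjusted p = 0.0207 by edgeR's quasi-likelihood test). No monocyte marker passed. Of all 7720 genes tested in the DOCA-HS model, 245 passed in either direction and 2.73% rose. Lcn2 had 1.45 ± 0.647 CPM before and 0.351 ± 0.497 CPM after CMG (SD, n = 2 each). Its levels before CMG lay below the 2.11 CPM of 3 counts in DOCA-HS after CMG replicate 2. That library therefore could not show a fall of Lcn2. The log2 fold changes of the defining markers were 0.85 (S100a8), 0.40 (S100a9), -0.07 (Csf3r), 0.03 (Cxcr2), 0.53 (Csf1r), 0.27 (Cd68), -0.22 (Lyz2) and -0.88 (Cd14), none of which passed.

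The 2 oxidase genes that rose in the AngII model were also set against single monocyte or myeloid genes. Cybb made up 16.3% and 20.1% of the counts of Cybb and Csf1r before CMG and 13.6% and 17.1% after it, so the groups overlapped. Cybc1 relative to Csf1r overlapped as well, at 11.1% and 26.7% before and 15.1% and 23.7% after CMG. Relative to Spi1, Cybc1 made up 27.6% and 26.7% before and 33.5% and 38.4% after CMG, without overlap of these values. The 95% Wilson intervals before CMG (22.3% to 33.6% and 20.2% to 34.4%) both held the value of replicate 1 after CMG. That library was thus not separated from those before CMG beyond counting error. These pairs were chosen after the values were seen. The part of cell makeup in the rise of Cybb and Cybc1 was not tested.

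Among the other cell types of the AngII model, 2 of 8 T cell markers fell (Cd3d, -0.81, unadjusted p = 0.0447, and Cd3g), 1 of 7 tested B cell markers (Cd22) and 3 of 5 tested natural killer cell markers (Prf1, Ncr1 and Klrb1a) rose, and none of 6 erythroid or 4 platelet markers passed. Of all 7201 genes tested in that model, 5.04% rose and 479 passed in either direction. Ms4a1 (0.62) and Cd3e (-0.48) did not pass there, nor did the erythroid genes Alas2 (-0.44) and Slc4a1 (-0.81). Of 3 tested heart and endothelium markers, Kdr rose, from 5 and 0 counts before to 9 and 19 after CMG, while Tie1 (0.54, unadjusted p = 0.231) and Pecam1 (-0.08, unadjusted p = 0.826) did not pass, and no hepatocyte marker had enough counts to test. The markers named here beside the defining ones were taken because they passed, that is, after their values were seen. In the DOCA-HS model the platelet genes Pf4 (1.72, unadjusted p = 0.0238) and Treml1 (1.92, unadjusted p = 0.0234) rose and no B cell, T cell, natural killer cell or erythroid marker passed. That made 2 of 4 tested platelet markers that rose, against 2.73% of all genes tested. The B cell gene Ms4a1 stood at -1.21 there, the T cell gene Cd3e at -0.89, Alas2 at 0.98 and Slc4a1 at 0.57. Erythroid markers summed to 36424 CPM in DOCA-HS after CMG replicate 2, against 10674 to 27477 CPM in the other 7 libraries. What part these shifts have in the oxidase values was not tested.

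**Figure D4:**
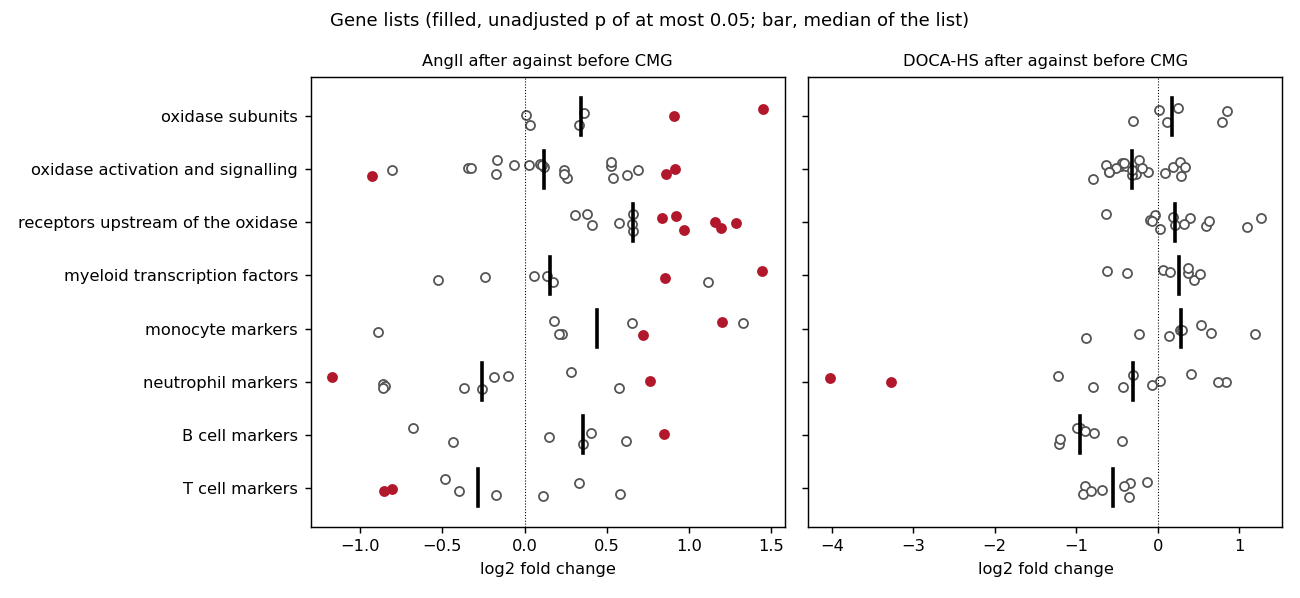
Log2 fold change after against before CMG (horizontal axis, a different range in each panel) of every tested gene of 8 lists, with filled points for an unadjusted p of at most 0.05 and a bar at the median of the list. In the AngII model 2 of 6 oxidase subunits and 6 of 13 receptors are filled on the right, and in the DOCA-HS model the filled points are Ngp and Lcn2 of the neutrophil list.

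The genes whose levels ran most like the oxidase genes were ranked by Pearson's r with the mean log2 CPM of the 6 genes, among 3623 genes with a mean of at least 50 counts. Over the 8 libraries the first 5 were Nadk (NAD kinase, which makes NADP, r = 0.983), Ankfy1 (0.975), Sorl1 (0.972), Bcl6 (a transcriptional repressor, 0.972) and Sbno2 (0.970). Nadk had 19.7 and 24.5 CPM before and 32.0 and 45.0 CPM after CMG in the AngII model, and 30.9 and 41.6 CPM before and 43.3 and 16.9 CPM after CMG in the DOCA-HS model. Its lowest level was in the same library in which Cybb had no count. In that library the mean log2 CPM of the 6 genes was lowest as well (3.65). On this normalized scale Cybb entered the mean there at -2.33, while Cyba (5.17), Ncf1 (4.86) and Rac2 (6.93) had their highest values of the 8 libraries. Scaled to total counts, Rac2 (41.7 CPM) and Ncf1 (9.88 CPM) were instead lowest in that library. The ranking over 8 libraries thus follows the missing Cybb counts of 1 library as well as the levels of the other genes. Without that library, a choice made after it was seen to stand apart, the first 5 over 7 libraries were Sirpa (an inhibitory receptor of myeloid cells, 0.999), Sbno2 (0.982), Nadk (0.980), Tnfrsf1a (a receptor of tumor necrosis factor, 0.969) and Myo1f (0.969). Sirpa had 9.19 and 11.6 CPM before and 21.1 and 25.1 CPM after CMG in the AngII model. Libraries share depth and cell makeup, so these values describe likeness only.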

How the data were processed

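Per the study's methods, the authors aligned single-end reads of directional whole-blood RNA libraries to rn6 with HISAT2 and counted them per gene with htseq-count in reverse-strand mode. The values used are these deposited counts, not normalized. Hemoglobin annotations are stated as removed, yet Hbb and LOC100134871, taken here as hemoglobin genes, led the counts and entered library sizes.

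From the counts, edgeR 4.0.16 (R 4.3.3; filterByExpr, TMM, quasi-likelihood F test) was fitted per model over all genes, and over the 8 libraries for contrasts between models, with no pairing. SE is the log2 fold change divided by the square root of F. Log2 CPM used a prior count of 2. DESeq2 1.42.0, other scalings and filters, a replicate block and leaving out each library were alternatives. On simulated counts 97.4% (AngII), 90.2% (DOCA-HS) and 78.8% (difference) of genes changed 4-fold were called at an unadjusted p of at most 0.05. Of unchanged genes 4.79%, 4.70% and 4.97% were called. These counts were drawn with the dispersions estimated from these data. Changes smaller than 4-fold, such as those fitted for the 6 genes in the main fits, were not simulated. Replicates differed beyond counting noise and were kept apart. The 6 genes and all lists were chosen with earlier results of these data known. All 6 genes were named in every comparison. List genes were named at an unadjusted p of at most 0.05, at most 6 per list, with the defining markers and the other oxidase genes always, except for some that are not reported here. The 5 genes most like the 6 were ranked by correlation.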

Additional observations from a re-analysis of the deposited data

How the results depend on the processing

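The Cybc1 call in the AngII model held in every alternative run, and the Cybb call did not. In the AngII model 1 of the 6 genes passed with DESeq2 and 1 with all 8 libraries in 1 fit (Cybc1 each time, with Cybb at an unadjusted p of 0.299 in the latter), and 1 to 2 passed when each library was left out. With the replicate number as a block, Cybc1 (log2 fold change 1.44, adjusted p = 0.000321 by edgeR) and Cybb (0.96, adjusted p = 0.0474) passed adjustment in the AngII model, 1 gene passed unadjusted in the difference between models, and Cybb after CMG (DOCA-HS against AngII) became -0.40. The block takes 1 more fitted term from the 4 libraries of a model, which leaves less from which to estimate their spread. Same-numbered libraries deviated together (correlation 0.473 for AngII and 0.321 for DOCA-HS), and by the study's methods rats were bled at both times. But 2 pairs per model and the labels do not show that the numbers pair the samples. The cause of the other shifts was not tested, beyond the shift that a scaling gives all genes.

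Scaled to total counts and to counts outside hemoglobin, in that order, the median log2 fold change of the 6 genes was 0.76 and 0.77 (AngII), -0.59 and -0.30 (DOCA-HS), -1.44 and -1.06 (difference), and 1.14 and 1.08 (models before CMG, with 1 gene passing under the latter), while the models after CMG had -0.19 under total counts. These scalings moved the median of all genes by 0.38 and 0.39, -0.72 and -0.37, -1.09 and -0.77, 0.80 and 0.72, and, after CMG, by -0.31 under total counts. Relative to that shift the 6 genes stood 0.39 and 0.39 (AngII), 0.17 and 0.11 (DOCA-HS) and 0.28 and 0.30 (models before CMG) above all genes, 0.17 and 0.17 above them after CMG, and at -0.23 and -0.17 in the difference. In the DOCA-HS model Cyba (-0.26), Ncf1 (-0.82), Ncf4 (-0.55) and Rac2 (-0.88) turned under total counts, and Ncf1 (-0.33), Ncf4 (-0.27) and Rac2 (-0.49) under counts outside hemoglobin. In the difference Cyba (-0.66, then -0.16) and Rac2 (-1.28, then -0.91) turned, before CMG Cyba (0.76, then 0.69), and after CMG Ncf1 (-0.41, then -0.0012), Ncf4 (-0.13) and Rac2 (-0.24).

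Small values changed sign in other fits. In the AngII model Cyba was -0.0044 with DESeq2 and -0.0042 with its size factors, and Rac2 -0.022 and -0.023 with these, -0.014 without a filter and -0.011 with 8 libraries in 1 fit. Without a filter, Rac2 was -0.047 (DOCA-HS) and -0.031 (difference), Cybb after CMG was -2.2e-05, and 1 gene passed before CMG. With DESeq2, Ncf1 was 0.0049 in the difference and Cybb -0.21 after CMG. A minimum of 10 counts in every library dropped Cybb outside the AngII model. It left Ncf1 at -0.15, Ncf4 at -0.12 and Rac2 at -0.33 (DOCA-HS), a median of -0.71 and Rac2 at -0.56 (difference), a median of 0.61 and Cyba at 0.25 (before CMG), and Ncf1 at -0.060, Ncf4 at -0.034 and Rac2 at -0.059 (after CMG).

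With each library left out in turn, the AngII median ran from 0.18 (without replicate 1 before CMG) to 0.45, Cyba from -0.24 to 0.26, Ncf1 from -0.010 to 0.57 and Rac2 from -0.083 to 0.041. In the DOCA-HS model 0 to 3 genes passed (3 without replicate 1 after CMG, which leaves the shallow library alone), Cybb ran from -10.1 to 0.49, Ncf1 from -0.40 to 0.78, Ncf4 from -0.20 to 0.50 and Rac2 from -0.20 to 0.21. In the difference 0 to 2 genes passed, Ncf1 ran from -0.72 to 0.46, Ncf4 from -0.59 to 0.18 and Rac2 from -0.20 to 0.21. Before CMG the median ran from 0.12 to 0.57 and Cyba from -0.32 to 0.27, and after CMG 0 to 2 genes passed, Cybb ran from -9.86 to 0.75 and Ncf1 from -0.33 to 0.85. The values of -10.1 and -9.86 are fits against 0 counts and no bounds.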
